A study of Mus musculus with 93 samples.

Results

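Granulosa cells of Esr2 knockout mice aged 7 weeks were compared with granulosa cells of Esr2 knockout mice aged 4 weeks. The samples were taken by their labels, and they are 12 of the 93 samples of the study, 5 at 7 weeks and 7 at 4 weeks. The study sampled oocytes and granulosa cells from ovaries of Esr2 knockout and wild type mice at 3 ages, and RNA was sequenced after full-length cDNA synthesis by Smart-seq2. Wild type granulosa at 7 weeks (5 samples) and at 4 weeks (7 samples) was used to ask whether an age change in knockout granulosa differed from that in wild type. Granulosa samples at 6 months, 6 knockout and 12 wild type, entered the same fit. The spread of each gene was thus estimated over all 42 granulosa libraries. The labels name no treatment for any of these groups. They give no allele, strain, hormone treatment, follicle stage, number of cells or pooling, and no animal or litter, so p-values measure the spread between these libraries, which may be technical. Each age was deposited as a table of its own, so age and the set of libraries cannot be told apart.

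Granulosa cells line the ovarian follicle and surround the oocyte. They respond to follicle stimulating hormone, convert androgens to estrogens, and after the ovulatory surge of luteinizing hormone turn into progesterone-secreting luteal cells. Esr2 encodes estrogen receptor beta, the main estrogen receptor of granulosa cells, while Esr1 encodes estrogen receptor alpha. In mice, the weeks between the 2 ages cover the passage through puberty to regular estrous cycles.

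Esr2 had 0 counts in each of the 5 knockout libraries at 7 weeks and in each of the 7 knockout libraries at 4 weeks. A count of 0 allows up to 3 counts, that is 0.470 to 4.20 CPM (counts scaled to a library of 1000000) per library at 7 weeks and 0.734 to 1.07 CPM at 4 weeks, and such limits cover counting error only. Wild type granulosa had 12 to 165 Esr2 counts per library at 7 weeks and 25 to 203 at 4 weeks. Esr1 had 40.3, 67.1, 25.2, 22.7 and 44.5 CPM in the 7 week knockout libraries, against 18.7 to 65.5 CPM (median 26.8) in the 4 week knockout libraries. The 2 ages overlapped for Esr1, with a log2 fold change of 0.22 ± 0.48 (SE) and an adjusted p of 0.908 (edgeR), and without 7 week libraries 1 and 2 it was -0.14.

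Totals of the knockout libraries ran from 714212 to 6377087 counts at 7 weeks and from 2814194 to 4085475 counts at 4 weeks. Libraries 1 and 2 of the 7 week knockout group were the shallowest of these, with 714212 and 1145934 counts. They stood apart from the other 10 knockout libraries on the first principal component. The median coefficient of variation over genes was 0.430 at 7 weeks and 0.332 at 4 weeks. Total counts, genes detected at an equal depth of 714016 counts, the share of counts in the 50 most abundant genes and the correlation of level with gene length did not pass the test between the ages (exact permutation tests, adjusted p 0.338 to 0.667). Counts over gene lists, and the log2 fold changes of some of the named genes, are given with and without libraries 1 and 2.

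In knockout granulosa, 6 genes were higher at 7 weeks than at 4 weeks and none was lower, among 14307 genes tested (0.0419%, edgeR quasi-likelihood test, adjusted p under 0.05). They were Col18a1, Endod1, Nt5e, Gask1b, Dmbt1 and Pdlim5. Their fold changes ran from 1.80 for Pdlim5 to 3.80 for Nt5e. At an unadjusted p under 0.05, 747 genes were higher (5.22%) and 471 were lower (3.29%), and over all genes the median log2 fold change was -0.02. These unadjusted counts depended on single libraries: their sum of 1218 genes was 680 without 7 week library 2, 2106 without 7 week library 4 and 563 without libraries 1 and 2. The levels of the 2 ages did not overlap for 53 genes that were higher at 7 weeks (0.37%) and for 28 that were lower (0.196%).

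Promoter sequences from RefSeq (GRCm38.p6) were available for 4 of the 6 genes and are shown because these genes carry the age difference. Each runs 5′ to 3′ on the gene's strand, from 250 bases before to 50 bases after an annotated start, and capitals mark a match to one of 4 motifs searched on both strands: TCAAGGTCA (of the NR5A1 and NR5A2 type), TGACGTCA (the cAMP response element), TGANTCA (AP-1) and TATAAA (the TATA box). No motif contains another, and TGANTCA reads the same on both strands. Col18a1 is shown at both of its starts, at chr10:77166481-77166780 and chr10:77113656-77113955 (both minus strand), Gask1b at chr3:79885680-79885979 (plus strand), Nt5e at chr9:88327359-88327658 (plus strand) and Pdlim5 at both of its starts, at chr3:142395647-142395946 and chr3:142391801-142392100 (both minus strand).
Col18a1, upstream start: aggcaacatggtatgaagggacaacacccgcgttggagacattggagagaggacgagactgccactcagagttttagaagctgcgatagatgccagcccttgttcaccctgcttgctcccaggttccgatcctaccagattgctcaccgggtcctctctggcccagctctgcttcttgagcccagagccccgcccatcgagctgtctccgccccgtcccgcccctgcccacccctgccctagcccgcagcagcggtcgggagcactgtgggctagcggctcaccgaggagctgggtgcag
Col18a1, downstream start: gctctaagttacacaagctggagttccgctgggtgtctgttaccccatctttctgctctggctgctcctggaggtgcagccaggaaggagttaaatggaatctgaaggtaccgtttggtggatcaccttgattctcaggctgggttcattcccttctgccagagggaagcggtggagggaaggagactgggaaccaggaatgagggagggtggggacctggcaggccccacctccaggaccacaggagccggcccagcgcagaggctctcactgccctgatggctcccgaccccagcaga
Gask1b: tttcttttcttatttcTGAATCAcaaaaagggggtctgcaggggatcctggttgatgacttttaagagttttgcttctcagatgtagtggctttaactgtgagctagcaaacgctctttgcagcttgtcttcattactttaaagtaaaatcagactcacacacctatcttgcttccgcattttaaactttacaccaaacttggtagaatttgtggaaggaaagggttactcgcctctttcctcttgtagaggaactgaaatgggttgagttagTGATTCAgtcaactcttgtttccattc
Nt5e: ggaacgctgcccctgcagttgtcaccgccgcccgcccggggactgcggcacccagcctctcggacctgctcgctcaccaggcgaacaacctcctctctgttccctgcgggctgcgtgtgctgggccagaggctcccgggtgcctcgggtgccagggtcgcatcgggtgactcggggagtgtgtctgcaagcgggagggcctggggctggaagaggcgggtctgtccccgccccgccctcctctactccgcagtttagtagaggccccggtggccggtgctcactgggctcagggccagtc
Pdlim5, upstream start: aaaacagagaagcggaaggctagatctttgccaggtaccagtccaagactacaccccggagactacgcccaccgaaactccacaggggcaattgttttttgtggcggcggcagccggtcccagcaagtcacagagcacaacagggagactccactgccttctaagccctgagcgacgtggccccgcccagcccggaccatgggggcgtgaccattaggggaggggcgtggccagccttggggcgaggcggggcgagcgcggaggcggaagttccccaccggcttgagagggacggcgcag
Pdlim5, downstream start: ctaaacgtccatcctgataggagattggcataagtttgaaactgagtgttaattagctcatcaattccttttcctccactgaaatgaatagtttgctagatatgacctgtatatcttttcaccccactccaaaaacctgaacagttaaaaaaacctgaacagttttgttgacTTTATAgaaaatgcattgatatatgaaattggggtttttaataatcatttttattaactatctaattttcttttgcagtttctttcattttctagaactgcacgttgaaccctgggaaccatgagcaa

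Gask1b held TGANTCA at 2 places, and the downstream Pdlim5 start held TATAAA on the opposite strand, while the upstream Pdlim5 start held none of the 4 motifs. TGANTCA was present in 6.41% and TATAAA in 8.94% of the 10264 tested genes with a promoter in the table. TCAAGGTCA (0.312% of genes) and TGACGTCA (3.51% of genes) were in none of the 4 genes' windows. These matches describe letters in these windows only. The windows follow RefSeq starts, while the gene coordinates given below follow GENCODE. By the GENCODE coordinates, the windows of Gask1b and Nt5e and the downstream windows of Col18a1 and Pdlim5 lie wholly inside the gene.

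Col18a1 encodes the alpha 1 chain of collagen XVIII, a heparan sulfate proteoglycan of basement membranes and the precursor of endostatin. The gene lies at chr10:77052178-77166548 (GRCm38, minus strand). It had 99.5, 86.7, 176, 186 and 141 CPM in the 7 week knockout libraries, against 38.3 to 63.9 CPM (median 50.04) in the 4 week knockout libraries. All 5 libraries at 7 weeks lay above all 7 at 4 weeks. The mean was 138 ± 44.4 CPM at 7 weeks and 49.5 ± 7.99 CPM at 4 weeks (SD, n = 5 and 7). The log2 fold change was 1.49 ± 0.21 (SE), a 2.80-fold higher level, with an adjusted p of 1.51e-04 (edgeR). Without libraries 1 and 2 the log2 fold change was 1.76.

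Nt5e encodes CD73, the cell surface enzyme that makes adenosine from AMP. It lies at chr9:88327197-88372092 (plus strand). Its levels were 40.3, 39.3, 16.6, 20.5 and 16.5 CPM in the 7 week knockout libraries, against 2.40 to 11.5 CPM (median 6.29) in the 4 week knockout libraries. The ages did not overlap, and libraries 1 and 2 were the highest. The log2 fold change was 1.93 ± 0.39 (SE, adjusted p = 0.0363, edgeR). It was 1.41 without libraries 1 and 2, and then no longer passed the test over all genes.

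Gask1b, which encodes a Golgi-associated kinase-like protein (chr3:79884533-79946280, plus strand), had 32.8, 35.2, 20.3, 31.8 and 33.8 CPM in the 7 week knockout libraries, against 4.55 to 15.6 CPM (median 12.8) in the 4 week knockout libraries. The ages did not overlap, and 4 of the 5 libraries at 7 weeks lay within a narrow range. The log2 fold change was 1.5 ± 0.30 (SE, adjusted p = 0.0363, edgeR). Without libraries 1 and 2 it was 1.41, not past the test.

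Dmbt1 encodes a secreted glycoprotein with scavenger receptor cysteine-rich domains (chr7:131032053-131121630, plus strand). It had 20.2, 12.3, 41.4, 35.7 and 21.5 CPM in the 7 week knockout libraries, against 2.73 to 16.1 CPM (median 9.91) in the 4 week knockout libraries. The ages overlapped through library 2 at 7 weeks. The log2 fold change was 1.52 ± 0.32 (SE, adjusted p = 0.0449, edgeR), and it was 1.81 without libraries 1 and 2, again past the test.

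Endod1, named for its endonuclease domain (chr9:14353990-14381507, minus strand), had 121, 254, 124, 132 and 77.0 CPM in the 7 week knockout libraries, against 57.5 to 82.2 CPM (median 65.3) in the 4 week knockout libraries. Library 5 at 7 weeks lay inside the 4 week range and library 2 was the highest. Pdlim5, a PDZ and LIM domain protein of the actin cytoskeleton (chr3:142239590-142395696, minus strand), had 130, 152, 137, 101 and 82.7 CPM in the 7 week knockout libraries, against 58.2 to 79.6 CPM (median 63.9) in the 4 week knockout libraries. The ages did not overlap for Pdlim5. The log2 fold changes were 1.04 ± 0.20 for Endod1 (adjusted p = 0.0363) and 0.85 ± 0.18 for Pdlim5 (SE, adjusted p = 0.0449, edgeR). Without libraries 1 and 2 they were 0.69 for Endod1 and 0.68 for Pdlim5, neither past the test.

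**Figure D1:**
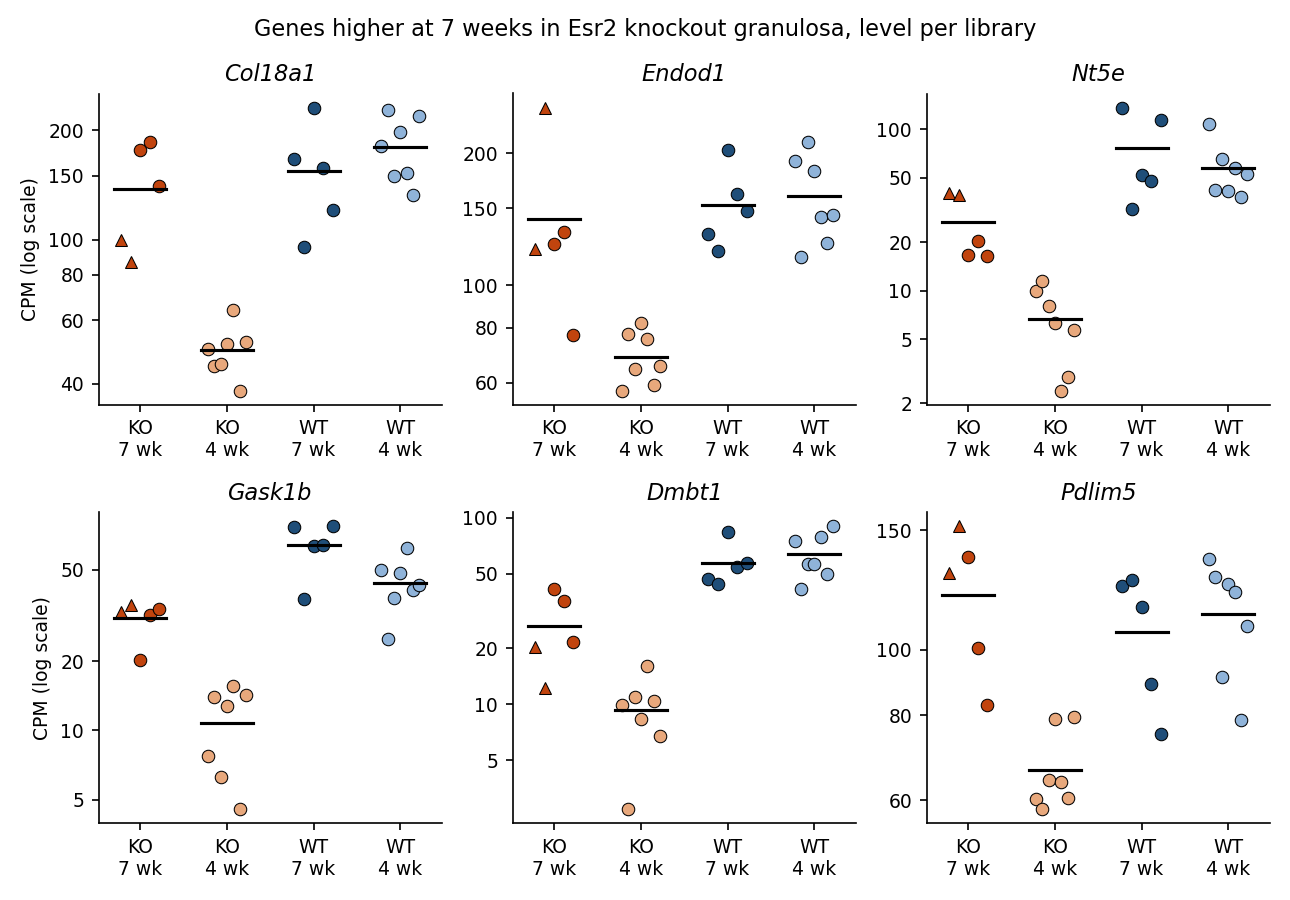
Level in CPM (log scale) of the 6 genes that passed the test in knockout granulosa, with 1 point per library, lines at the group means, and triangles for the 2 shallowest 7 week knockout libraries. The 4 week knockout mean is the lowest of the 4 means in each panel, and for Col18a1 the 4 week knockout libraries reach 63.9 CPM against at least 86.7 CPM at 7 weeks.

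No wild type gene passed the same test between 7 and 4 weeks (0%; 1357 genes at an unadjusted p under 0.05 with edgeR, and 1 gene past the adjusted test with DESeq2). That unadjusted wild type count was 679 without 7 week wild type library 2 and 1915 without 4 week wild type library 6. For Col18a1, wild type granulosa averaged 154 ± 51.8 CPM at 7 weeks and 180 ± 36.6 CPM at 4 weeks (SD, n = 5 and 7). The wild type log2 fold change was -0.23 ± 0.21 (SE). The age change in knockout minus that in wild type was 1.72 ± 0.30 (SE) on the log2 scale, and Col18a1 was the 1 gene of 14307 for which this difference passed the test (0.00699%, adjusted p = 0.0151, edgeR). The call was lost in the 24 libraries of 7 and 4 weeks alone, with the erythroid marker covariate, and without 7 week knockout library 3 or 4 or 7 week wild type library 2 or 5 (log2 difference 1.58 to 1.71, adjusted p 0.0617 to 0.122, edgeR). Across the 3 ages the knockout mean was 49.5 ± 7.99 CPM at 4 weeks, 138 ± 44.4 CPM at 7 weeks and 168 ± 50.2 CPM at 6 months (SD, n = 7, 5 and 6).

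For the other 5 genes the difference between the age changes did not pass the test (adjusted p 0.143 to 0.339, edgeR). The estimated differences were 1.10 for Endod1, 1.55 for Nt5e, 0.97 for Gask1b, 1.68 for Dmbt1 and 0.95 for Pdlim5 on the log2 scale. At 4 weeks, the knockout mean lay below the wild type mean for each of them. Nt5e averaged 6.69 ± 3.40 CPM in knockout and 57.9 ± 24.2 CPM in wild type at 4 weeks (SD, n = 7 each), and Dmbt1 averaged 9.31 ± 4.10 CPM in knockout and 64.1 ± 17.5 CPM in wild type. At 7 weeks Nt5e averaged 26.6 ± 12.1 CPM in knockout and 76.5 ± 45.8 CPM in wild type, and Dmbt1 averaged 26.2 ± 12.0 CPM in knockout and 57.3 ± 16.02 CPM in wild type (SD, n = 5 each). Pdlim5 averaged 120 ± 28.2 CPM in knockout and 106 ± 22.8 CPM in wild type at 7 weeks, and Endod1 averaged 142 ± 66.6 CPM in knockout and 153 ± 32.7 CPM in wild type. These levels by genotype are given as a description, with no test of knockout against wild type at either age.

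**Figure D2:**
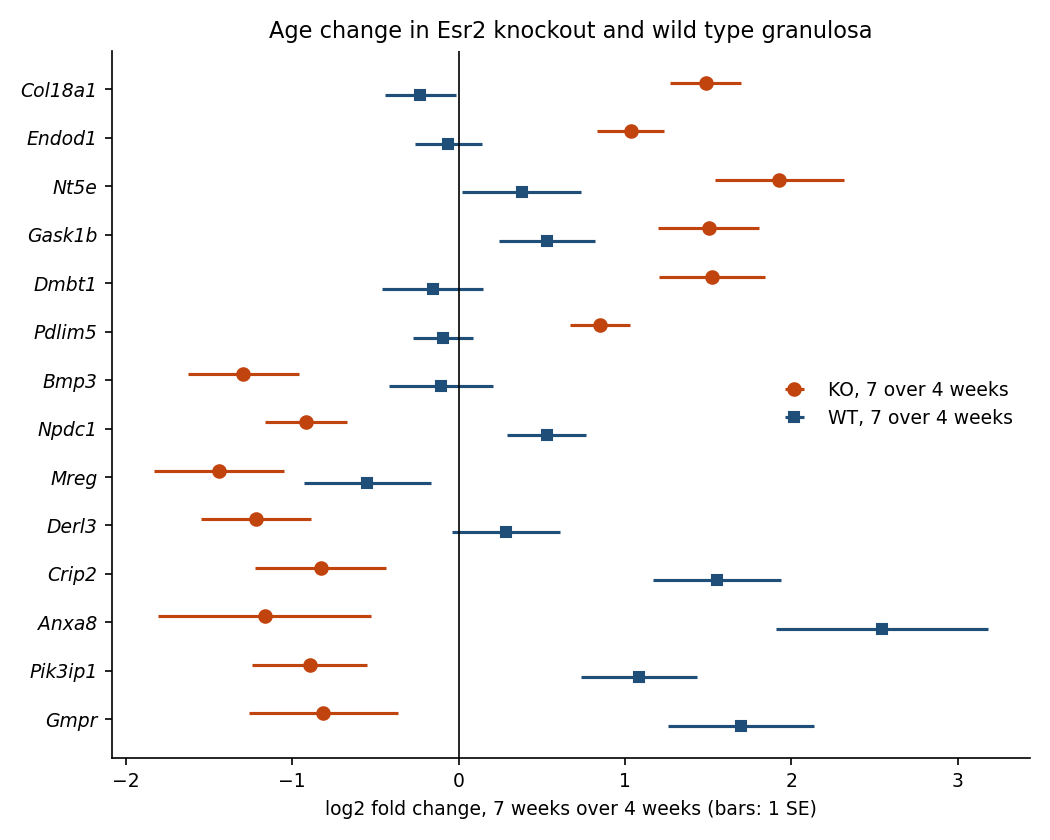
Log2 fold change of 7 over 4 weeks in knockout (circles) and wild type (squares) granulosa, with bars of 1 SE, for the 6 genes that passed the test, 4 lower genes among those with the smallest p, and the other lower genes with the smallest p for the difference between genotypes. For Col18a1 the knockout change was 1.49 and the wild type change -0.23.

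Bmp3, Npdc1, Mreg and Derl3 were among the lower genes with the smallest p, none past the test (adjusted p 0.195 to 0.245, edgeR). Bmp3 encodes an antagonist-like member of the bone morphogenetic protein family. It had 21.4, 33.5, 10.55, 17.5 and 18.1 CPM in the 7 week knockout libraries, against 22 to 71.6 CPM (median 47.6) in the 4 week knockout libraries, a log2 fold change of -1.29 ± 0.33 (SE). Derl3, a protein of endoplasmic reticulum-associated degradation, had 30.2, 36.0, 54.6, 74.9 and 99.8 CPM in the 7 week knockout libraries, against 81.0 to 188 CPM (median 154) in the 4 week knockout libraries, a log2 fold change of -1.22 ± 0.33 (SE). For each of these 4 genes all 5 libraries at 7 weeks lay below the median of the 4 week libraries, and the ages overlapped. As an alternative, DESeq2 called Bmp3, Npdc1 and Derl3 lower (adjusted p 0.0245 to 0.0385), and it gave no adjusted p for Mreg.

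Among genes with a lower age change in knockout than in wild type, Crip2, Npdc1, Anxa8, Pik3ip1 and Gmpr had the smallest p, none past the test (adjusted p = 0.143, edgeR). Crip2, a LIM domain protein, showed -0.83 ± 0.39 in knockout and 1.55 ± 0.39 in wild type as the log2 change of 7 over 4 weeks (SE). Gmpr, GMP reductase of purine metabolism, showed -0.81 ± 0.45 in knockout and 1.70 ± 0.44 in wild type on the same scale. Library 2 of the 7 week wild type group was the highest for both, with 129 CPM of Gmpr and 235 CPM of Crip2, against 18.0 to 38.7 CPM of Gmpr and 27.1 to 112 CPM of Crip2 in the other 4.

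Across 26 gene lists, Col18a1 was the 1 list member that passed the test in knockout granulosa. List members are therefore described below by unadjusted p and by the median log2 fold change, to be read against 5.22% higher, 3.29% lower and a median of -0.02 over all genes. Counts without libraries 1 and 2 are to be read against 324 higher (2.15%) and 239 lower (1.59%) of the 15067 genes tested in that fit, with a median of -0.03. Members of a list are not independent of each other, and libraries 1 and 2 at 7 weeks bear on several of these counts.

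Of 41 tested basement membrane and extracellular matrix genes, 9 were higher and 3 lower at an unadjusted p under 0.05, and the median log2 fold change was 0.12 in knockout and -0.39 in wild type. Without libraries 1 and 2, 5 were higher and 1 was lower. Col15a1, a collagen of the same multiplexin family as collagen XVIII, had 13.9, 7.36, 52.4, 19.0 and 22.5 CPM in the 7 week knockout libraries, against 5.61 to 11.5 CPM (median 6.97) in the 4 week knockout libraries. Library 3 was the highest, library 2 lay inside the 4 week range, and the log2 fold change was 1.65 ± 0.45 (SE, adjusted p = 0.245, edgeR). Lama4, the laminin alpha 4 chain, had 5.04, 9.81, 6.40, 7.40 and 8.64 CPM in the 7 week knockout libraries, against 0.650 to 4.35 CPM (median 2.73) in the 4 week knockout libraries, with no overlap and a log2 fold change of 1.43 ± 0.41 (SE, adjusted p = 0.275, edgeR). In 7 week library 1 a count of 0 allows up to 4.20 CPM, so the lack of overlap for Lama4 rests on few counts. Without libraries 1 and 2 its log2 fold change was 1.42. Dcn, the matrix proteoglycan decorin, was uneven at 7 weeks, with 0, 36.8, 17.3, 16.7 and 49.5 CPM, against 1.82 to 15.9 CPM (median 4.56) at 4 weeks. Thbs1, the matrix glycoprotein thrombospondin 1, had a log2 fold change of -1.05 ± 0.32 (SE, adjusted p = 0.319, edgeR), with 569, 188, 295, 348 and 343 CPM at 7 weeks, against 397 to 1130 CPM (median 695) at 4 weeks.

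The summed level of 8 endothelial markers was 54.6, 34.0, 26.0, 36.4 and 36.7 CPM in the 7 week knockout libraries, against 18.5 to 31.3 CPM in the 4 week knockout libraries. Of the 5 libraries at 7 weeks, 4 lay above all 4 week libraries, and the log2 difference of 0.56 did not pass after adjustment over 10 marker lists (exact permutation test, two-sided, p = 0.0126, adjusted p = 0.126). Cdh5, the cadherin of endothelial junctions, had the highest level of the 8 in each 7 week library, with 42, 27.1, 11.3, 23.2 and 17.4 CPM at 7 weeks, against 9.9 to 18.1 CPM at 4 weeks. Its log2 fold change was 0.80 with all libraries and 0.41 without libraries 1 and 2. The endothelial receptors Kdr and Flt1 each lay between 0 and 1.3 CPM in the 7 week libraries, against 0 to 1.3 CPM for Kdr and 0 to 0.8 CPM for Flt1 at 4 weeks, and the junction protein gene Cldn5 was at 0 in 4 of the 5 libraries at 7 weeks. The levels of Cdh5, Kdr, Flt1 and Cldn5 are CPM of library totals, as the sum is. Collagen XVIII, collagen XV and laminin alpha 4 are also made by endothelial cells, and the part of the summed marker level in the matrix genes was not tested. In bulk samples fewer cells of a type and less RNA per cell cannot be told apart.

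Steroid synthesis genes showed no shared shift. Of 18 tested, 3 were higher and 1 was lower at an unadjusted p under 0.05, with a median log2 fold change of 0.01 in knockout and 0.16 in wild type. The counts without libraries 1 and 2 were again 3 higher and 1 lower. Akr1c18 encodes 20-alpha-hydroxysteroid dehydrogenase, which inactivates progesterone. It had 1789, 690, 351, 579 and 431 CPM in the 7 week knockout libraries, against 143 to 531 CPM (median 226) in the 4 week knockout libraries. Library 1 was the highest, all 5 libraries lay above the 4 week median, and the log2 fold change was 1.6 ± 0.36 (SE, adjusted p = 0.0894, edgeR). It was 0.84 without libraries 1 and 2. Wild type granulosa averaged 3019 ± 1210 CPM at 7 weeks and 1452 ± 573 CPM at 4 weeks (SD, n = 5 and 7), a log2 fold change of 1.06 ± 0.36 (SE, adjusted p = 0.406, edgeR).

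Nr5a2 encodes LRH-1, the orphan nuclear receptor that granulosa cells need for ovulation in mice. It had 319, 685, 286, 144 and 164 CPM in the 7 week knockout libraries, against 76.7 to 170 CPM (median 102) in the 4 week knockout libraries. Library 2 was the highest and the ages overlapped, with a log2 fold change of 1.48 ± 0.36 (SE, adjusted p = 0.165, edgeR) and 0.78 without libraries 1 and 2. Wild type showed -0.71 ± 0.37 (SE), and the difference between the genotypes was 2.18 ± 0.52 (SE, adjusted p = 0.143, edgeR). Fdx1, the electron donor of mitochondrial steroid-making P450 enzymes, had a log2 fold change of 0.44 ± 0.18, 0.29 without libraries 1 and 2, and Hsd17b4, a peroxisomal enzyme, one of -0.75 ± 0.29 (SE), neither past the test.

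Luteal genes included 4 of 14 that were higher at an unadjusted p under 0.05 and none that was lower, with a median log2 fold change of 0.30 in knockout and -0.16 in wild type. The count without libraries 1 and 2 was again 4 higher and 0 lower. Prlr, the prolactin receptor, had 139, 231, 236, 206 and 249 CPM in the 7 week knockout libraries, against 58.3 to 191 CPM (median 105) in the 4 week knockout libraries. Oxtr, the oxytocin receptor, had 11.3, 18.0, 22.6, 19.0 and 9.17 CPM in the 7 week knockout libraries, against 2.92 to 13.5 CPM (median 6.24) in the 4 week knockout libraries. For both receptors 1 or more libraries overlapped, and their log2 fold changes were 0.88 ± 0.27 for Prlr and 1.25 ± 0.41 for Oxtr (SE, adjusted p 0.328 and 0.365, edgeR).

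Cholesterol synthesis and uptake genes supply the substrate for steroid hormones. Of 26 tested, 7 were higher and none was lower at an unadjusted p under 0.05, with a median log2 fold change of 0.24 in knockout and 0.22 in wild type. Without libraries 1 and 2 the counts were 0 higher and 0 lower and the median was 0.02. Hmgcs1, an early enzyme of the pathway, had 86.9, 332, 87.02, 88.1 and 54.2 CPM in the 7 week knockout libraries, against 41.3 to 74.9 CPM (median 60.2) in the 4 week knockout libraries. Library 2 at 7 weeks was the highest, and its log2 fold change of 1.17 was 0.42 without libraries 1 and 2.

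Ovulation and cumulus expansion genes had the highest list median, 0.50 in knockout and -0.14 in wild type, with 4 of 19 higher and 1 lower at an unadjusted p under 0.05. With libraries 1 and 2 left out the median was -0.38, with 0 higher and 2 lower. Cd44, the hyaluronan receptor, had 98.3, 115, 26.7, 33.0 and 24.1 CPM in the 7 week knockout libraries, against 9.42 to 38.2 CPM (median 23.3) in the 4 week knockout libraries. Only libraries 1 and 2 lay above the 4 week range. Runx1, a transcription factor induced before ovulation, had 231, 339, 263, 204 and 140 CPM at 7 weeks, against 118 to 221 CPM (median 133) at 4 weeks, a log2 fold change of 0.62, and of 0.40 without libraries 1 and 2.

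**Figure D3:**
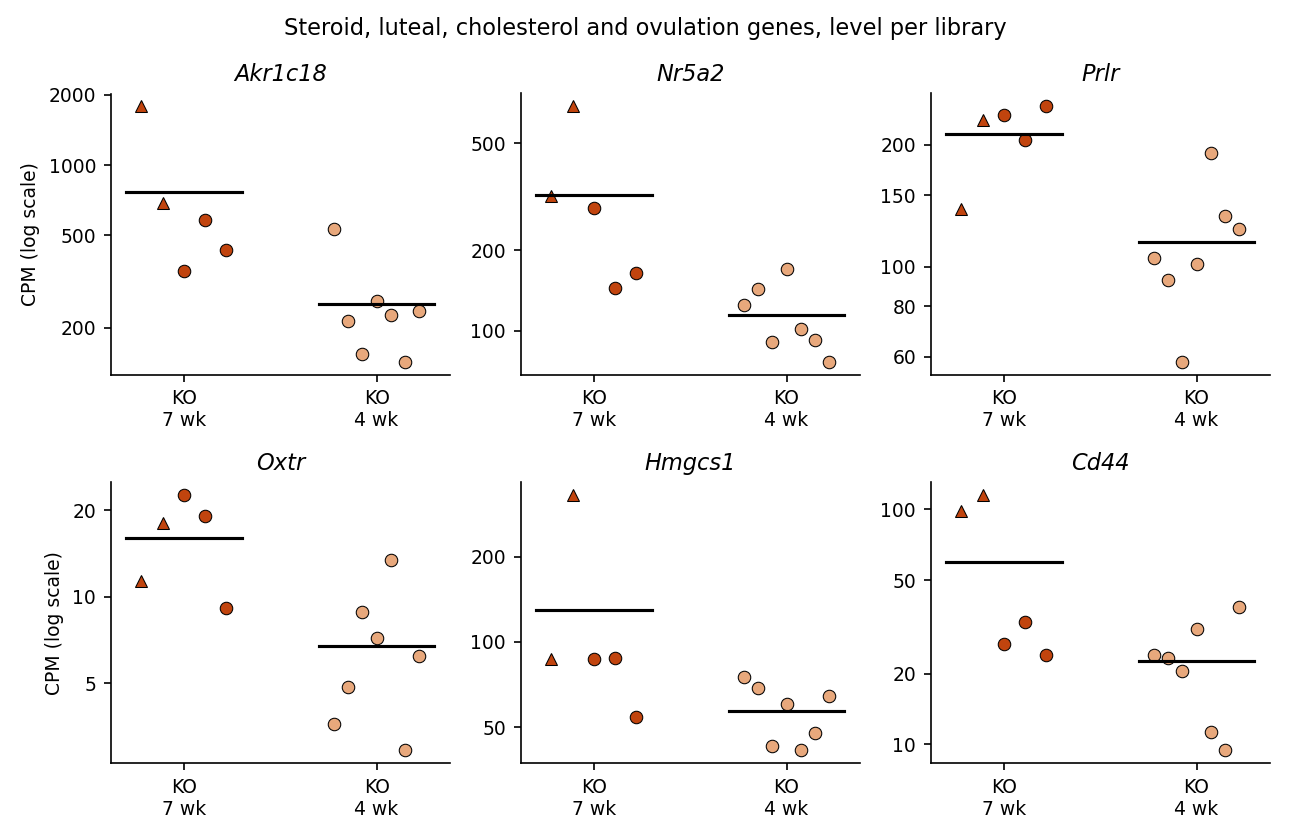
Level in CPM (log scale) of 6 steroid, luteal, cholesterol and ovulation genes in knockout granulosa at 7 weeks (5 libraries) and 4 weeks (7 libraries), with lines at the means and triangles for the 2 shallowest 7 week knockout libraries. A triangle is the highest point for Akr1c18, Nr5a2, Hmgcs1 and Cd44, and none of the 6 genes passed the test.

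Of 25 tested Wnt and R-spondin genes, 5 were higher and 1 lower at an unadjusted p under 0.05 with all libraries, and 1 was higher and 1 lower without libraries 1 and 2. Lgr4, an R-spondin receptor, had 302, 583, 61.8, 97.9 and 87.7 CPM in the 7 week knockout libraries, against 44.9 to 135 CPM (median 75.0) in the 4 week knockout libraries. Its log2 fold change was 1.46 with all libraries and 0.02 without libraries 1 and 2. Wnt4, a ligand of ovarian differentiation, had 134, 138, 303, 126 and 116 CPM at 7 weeks, against 61.6 to 121 CPM (median 89.6) at 4 weeks, a log2 fold change of 0.95 and of 1.09 without libraries 1 and 2.

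Of 33 TGF-beta, BMP and activin genes, 5 were higher and 1 lower, and without libraries 1 and 2 none was higher and 1 was lower. Bmpr1a, a BMP receptor, had 93.2, 152, 60.6, 39.5 and 41.9 CPM in the 7 week knockout libraries, against 14.8 to 59.4 CPM (median 37.2) in the 4 week knockout libraries, with libraries 1 and 2 the highest. Its log2 fold change was 0.98 with all libraries and 0.28 without these. The lower gene of the list was Id3, a target gene of BMP signalling that encodes an inhibitor of helix-loop-helix factors. It had 448, 368, 485, 577 and 560 CPM in the 7 week knockout libraries, against 666 to 1365 CPM (median 844) in the 4 week knockout libraries. The ages did not overlap, and the log2 fold change was -0.95 ± 0.28 (SE, adjusted p = 0.275, edgeR). Of 9 Hedgehog genes, 1 was higher, with and without libraries 1 and 2. Gas1, a Hedgehog co-receptor, had 41.6, 54.8, 40.7, 23.9 and 17.0 CPM in the 7 week knockout libraries, against 5.52 to 15.2 CPM (median 8.07) in the 4 week knockout libraries, with no overlap and a log2 fold change of 1.90 ± 0.47 (SE, adjusted p = 0.165, edgeR). Notch genes had 1 of 13 higher with all libraries and none without libraries 1 and 2, and genes of IGF, insulin and PI3K signalling had 1 of 26 higher with all libraries and 1 without these.

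Interferon response genes had the lowest list median, -0.54 in knockout and -0.46 in wild type, and 22 of 23 had a negative log2 fold change in knockout. Of these, 4 were lower at an unadjusted p under 0.05 and none was higher, and without libraries 1 and 2 the median was -0.21 with 1 lower. Oasl2, an interferon-induced gene of the oligoadenylate synthetase family, had 59.2, 36.8, 46.3, 77.7 and 180 CPM in the 7 week knockout libraries, against 139 to 235 CPM (median 183) in the 4 week knockout libraries. Irf1, an interferon-regulated transcription factor, had 21.4, 24.5, 18.8, 28.3 and 29.9 CPM at 7 weeks, against 28.3 to 55.1 CPM (median 43.7) at 4 weeks. Their log2 fold changes were -1.17 ± 0.39 for Oasl2 and -0.85 ± 0.31 for Irf1 (SE, adjusted p 0.369 and 0.439, edgeR).

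Apoptosis and atresia genes had 1 of 26 higher and 4 lower at an unadjusted p under 0.05, and 0 in either direction without libraries 1 and 2. Clu, the secreted chaperone clusterin, had 2334, 1507, 1546, 3837 and 3079 CPM in the 7 week knockout libraries, against 3293 to 7051 CPM (median 5793) in the 4 week knockout libraries. Library 4 at 7 weeks lay inside the 4 week range, and the log2 fold change was -1.03 ± 0.37 (SE, adjusted p = 0.439, edgeR). Immediate-early genes had 3 of 27 higher and 2 lower, 1 higher and 1 lower without libraries 1 and 2, and a median of -0.36 in knockout and -0.41 in wild type. Klf2 had 275, 202, 142, 75.2 and 71.8 CPM at 7 weeks, against 44.8 to 90.8 CPM at 4 weeks, a log2 fold change of 1.25, and of 0.59 without libraries 1 and 2. Of 16 heat shock genes, 2 were higher with all libraries and 0 without libraries 1 and 2, and the inducible Hspa1b reached 189 CPM in library 2.

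Granulosa identity and FSH response genes had 3 of 28 higher and none lower, with a median of 0.02, and 4 higher and none lower without libraries 1 and 2. Foxl2, the transcription factor that maintains granulosa identity, had 21.4, 11.5, 26.4, 14.0 and 12.3 CPM in the 7 week knockout libraries, against 5.99 to 15.04 CPM (median 7.02) in the 4 week knockout libraries. Its log2 fold change was 0.94 ± 0.41 (SE, adjusted p = 0.536, edgeR). Cyp19a1, the aromatase gene, was at 2.52, 1.64, 0.377, 3.62 and 0.786 CPM at 7 weeks, against 0.480 to 6.67 CPM (median 4.69) at 4 weeks. Among 27 nuclear receptors and co-regulators, 2 were higher at an unadjusted p under 0.05, Nr5a2 among them, and without libraries 1 and 2 again 2 were higher. Of 15 retinoid genes, 1 was higher in both fits with all libraries and without libraries 1 and 2, and with all libraries it was Aldh1a2, which makes retinoic acid and stood at 0 to 5.76 CPM at 7 weeks. Aldh1a2 is also on the surface epithelium marker list. As CPM of library totals it had 0 to 6.26 at 7 weeks and 0 to 1.65 at 4 weeks.

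Cell cycle genes had 2 of 40 higher and 1 lower with a median of -0.20, ribosomal protein genes 2 of 52 higher with a median of 0.03, and nuclear oxidative phosphorylation genes 1 of 69 lower with a median close to 0. Genes of glycolysis and hypoxia had 2 of 28 higher with a median of -0.26, and those of endoplasmic reticulum chaperones had 2 of 27 higher and 1 lower with a median of -0.05. Antioxidant genes had 2 of 37 higher and none lower. Gap junction and oocyte support genes had 0 of 18 in either direction, prostaglandin genes 1 of 16 higher and core histones 1 of 16 lower. When libraries 1 and 2 were left out, antioxidant genes had 0 higher and 2 lower, glycolysis genes 0 higher and 1 lower, cell cycle genes 2 higher, gap junction and oocyte support genes 2 higher and core histones 1 lower. In that fit ribosomal protein, oxidative phosphorylation, endoplasmic reticulum chaperone and prostaglandin genes had 0 in either direction. Genes with near-identical processed copies, among them ribosomal protein, histone and globin genes, are uncertain, because the counting could split their reads.

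**Figure D4:**
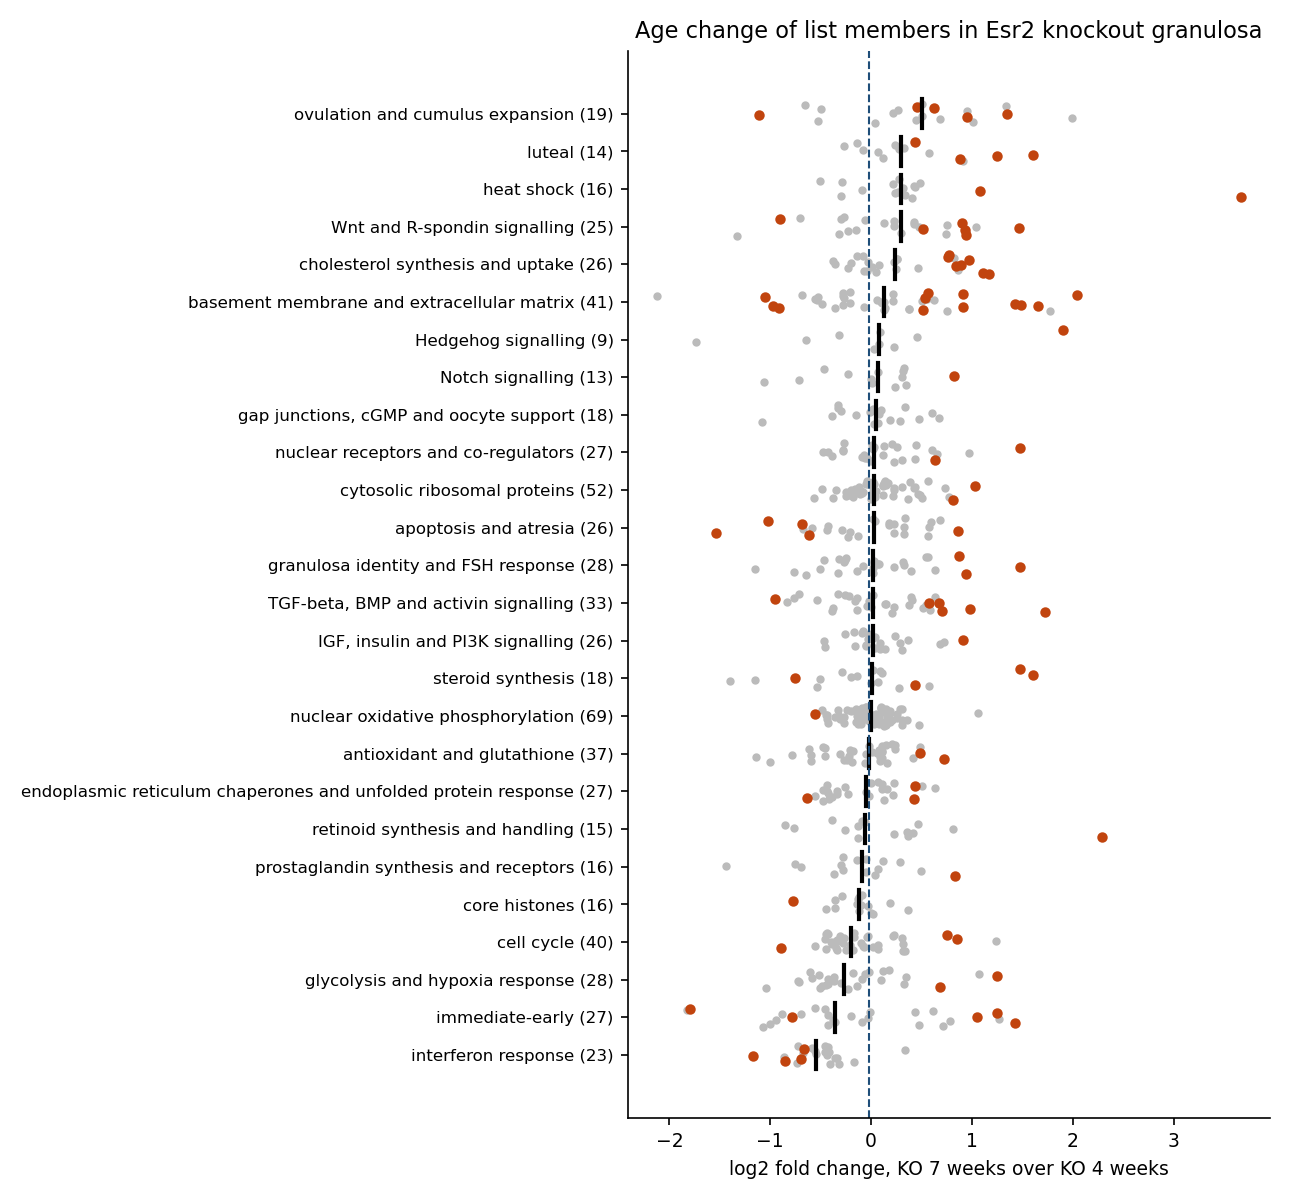
Log2 fold change of 7 over 4 weeks in knockout granulosa for every tested member of 26 gene lists, with the number tested in brackets, a black bar at each list's median, orange-red points for members at an unadjusted p under 0.05 and a dashed line at the median of all genes (-0.02). The medians run from -0.54 for interferon response to 0.50 for ovulation and cumulus expansion.

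The labelled cell type was checked against marker genes. The 12 granulosa markers summed to 2396, 2518, 3999, 6000 and 4623 CPM in the 7 week knockout libraries, against 3070 to 6518 CPM (median 6074) in the 4 week knockout libraries. Libraries 1 and 2 lay below all others, and the difference did not pass the test (log2 difference -0.41, exact permutation test, adjusted p = 0.424). Inha and Inhba together made up most of this sum in each library. Of the 12 markers, 6 had a positive log2 fold change and 6 a negative one. As CPM of library totals, Inha had 956 and 755 in libraries 1 and 2, against 1581 to 4572 at 4 weeks. Nr5a2 had 354 and 731 in these libraries, against 73.9 to 190 at 4 weeks. Mural granulosa markers, those of cells at the follicle wall, summed to 1544, 1553, 3166, 5455 and 3924 CPM at 7 weeks, against 1375 to 2889 CPM at 4 weeks. Libraries 3, 4 and 5 lay above all 4 week libraries for this sum. Cyp11a1 made up most of it in each library. It had 1187, 901, 2618, 4978 and 3442 CPM of library totals at 7 weeks, against 986 to 2542 CPM at 4 weeks. Its log2 fold change was 0.58, not past the test. Of the 7 mural markers, 5 had a positive log2 fold change and 2, Cyp19a1 and Nppc, a negative one. None of the 10 marker lists passed the test after adjustment.

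Markers of other cell types were uneven among the 7 week libraries. Immune markers summed to 3718 CPM in library 1 and to 295 to 523 CPM in the other 4, against 288 to 643 CPM in the 4 week knockout libraries. Oocyte markers summed to 134 CPM in library 1 and to 28.0 to 43.6 CPM in the other 4, against 15.8 to 40.2 CPM at 4 weeks. Erythroid markers summed to 476 CPM in library 5 and to 12.3 to 57.1 CPM in the other 4, against 9.23 to 40.9 CPM at 4 weeks. All 5 tested erythroid genes were higher at an unadjusted p under 0.05, and Hba-a1 stood at 7.56, 8.18, 18.8, 18.3 and 175 CPM at 7 weeks, against 3.64 to 16.4 CPM at 4 weeks. Summed cumulus, theca and stroma, smooth muscle and pericyte, and surface epithelium markers overlapped between the ages (exact permutation tests, adjusted p 0.657 to 0.785). Krt8, Krt18 and Krt19 made up most of the surface epithelium sum. Of 11 tested genes of that list, 3 were higher and 0 lower at an unadjusted p under 0.05 (5.22% and 3.29% over all genes). They were Upk3b, Aldh1a2 and Upk1b (log2 fold change 3.18, 2.29 and 1.93), none past the test. Log2 fold changes were positive for 6 of the 11 and negative for 5. Without libraries 1 and 2, 4 of 12 were higher (2.15% over all genes). The part of these markers in the gene results was not tested beyond the fits that follow. The fits with the immune, oocyte or erythroid sum as a covariate called 5, 5 and 8 genes in knockout granulosa, against 6 without a covariate. With the erythroid sum as a covariate, the difference between the age changes of knockout and wild type no longer passed for Col18a1 (adjusted p = 0.0734, edgeR), and with the immune or oocyte sum 1 gene passed.

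**Figure D5:**
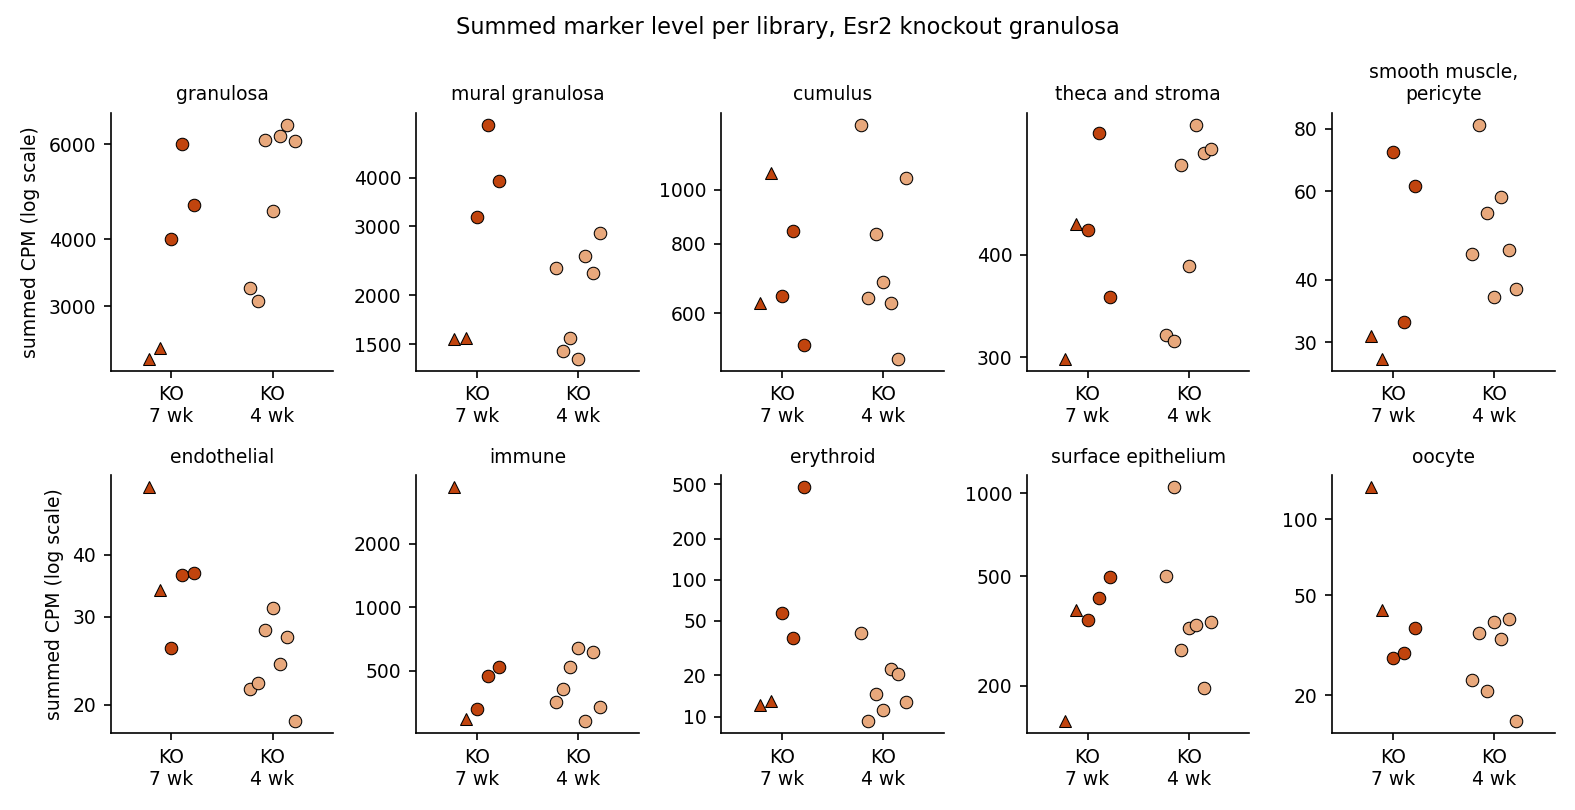
Summed CPM (log scale) of 10 marker lists per knockout granulosa library at 7 weeks (5 libraries) and 4 weeks (7 libraries), with triangles for the 2 shallowest 7 week knockout libraries. Library 1 stands out for immune (3718 CPM) and oocyte markers (134 CPM) and library 5 for erythroid markers (476 CPM).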

How the data were processed

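Knockout granulosa libraries of 7 weeks (5) and 4 weeks (7) were analysed with wild type libraries of the same ages. The members and all gene lists were chosen with earlier results of these data known. Per the submitters' processing notes, the authors used STAR, Partek and DESeq2 (no versions given) and the mm10 genome; the annotation is not given in the sources used here. The deposited tables hold expected counts per gene, not normalised (13.6% of values are not whole at a tolerance of 0.001), and they were rounded before testing. The authors' normalised tables were not used, and miRNA data were not analysed here.

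The 3 granulosa tables, 1 per age, were joined by gene symbol (16728 genes in all 3), which leaves out genes absent from a table. All 42 granulosa libraries entered 1 model with a mean per group: filterByExpr (14307 genes), TMM scaling and the robust quasi-likelihood test of edgeR 4.0.16 in R 4.3.3, with Benjamini-Hochberg adjustment over all tested genes and a threshold of 0.05. DESeq2 1.42.0 and limma 3.58.1 were alternatives. Scripts were tested on simulated data. Gene levels are CPM of TMM-scaled libraries, unless given as CPM of library totals. Marker sums are CPM of library totals, compared as log2 of the sum plus 1 by exact two-sided permutation tests in scipy. Gene coordinates are GRCm38 (GENCODE). Depth ran from 714212 to 6377087 counts per knockout library of 7 and 4 weeks. In wild type granulosa it ran from 702726 to 5158822 at 7 weeks and from 1413790 to 6469419 at 4 weeks. Shallow libraries carry more counting error for low genes. Named genes were Esr2, Esr1, up to 15 called genes per direction averaging 5 CPM or more in the higher group, up to 8 per direction for the genotype difference, and up to 4 members of each list by smallest p; where none passed, 5 were named as not past the test. Predicted and unnamed loci were left out, and a few genes that the rule names are not reported here. Alternatives covered scaling, tools, filters, gene length, marker covariates, sets of libraries and single libraries left out.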

Additional observations from a re-analysis of the deposited data

Results flagged for a closer look

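In 60 groups of values, the library farthest from the others was set against its group's range, and chance alone would single out about 1 group in 20. Summed immune markers in 7 week knockout granulosa had 1 library at 3720 CPM, the next being 523.0 CPM. Summed oocyte markers had 1 such library at 134 CPM at 7 weeks, with the next at 43.6 CPM. Summed erythroid markers had 1 library far above its group at each age, 476 CPM at 7 weeks and 40.9 CPM at 4 weeks. Summed surface epithelium markers had 1 library at 1050 CPM at 4 weeks, with the next at 501.0 CPM. Gask1b was lowest in 1 library at 7 weeks (20.3 CPM, the next 31.8 CPM), which still lay above all 4 week libraries. Gmpr was highest in 1 library at 4 weeks (73.7 CPM, the next 44.5 CPM). The age change of Col18a1 differed between knockout and wild type by 1.72 on the log2 scale, by the test of the difference itself.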

How the results depend on the processing

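The count of 6 genes in knockout granulosa was 42 with DESeq2 (34 higher, 8 lower), 1 with limma voom, 1 when the 24 libraries of 7 and 4 weeks were fitted alone, 1 with the 12 knockout libraries alone and 2 without libraries under 1000000 counts. It was 2, Col18a1 and Dmbt1, without the 2 shallowest 7 week knockout libraries, a setting chosen after seeing the data, as was setting genes missing from a table to 0 (4 genes). Leaving out 1 library at a time gave 1 to 7 genes, with 1 gene without 7 week library 1 or 4 or 4 week library 3, 6 or 7, and 2 without 7 week library 2 or 4 week library 4. Col18a1 was called in 26 of 27 alternatives, Endod1 in 15, Nt5e in 13, Gask1b in 12, Dmbt1 in 9 and Pdlim5 in 6. For the difference between knockout and wild type, the count of 1 was 55 with DESeq2 (40 higher, 15 lower), 0 in the 24 libraries alone, 0 with the erythroid covariate and 2 without both shallow libraries. Leaving out 1 library gave 0 to 6, with 0 without 7 week knockout library 3 or 4 or 7 week wild type library 2 or 5, 2 without 4 week wild type library 4 and 6 without 4 week wild type library 6. The cause of these shifts was not tested. Members of gene lists past the test numbered 1, against 7 with DESeq2, 2 with the length trend removed, 2 with the erythroid covariate, and 1 to 2 when 1 library was left out. Marker lists past the test numbered 0 in all settings tried.

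Residual correlations between samples of the same number at the 2 ages were 0.16, 0.44, 0.07, -0.37 and 0.08 for numbers 1 to 5. Only for number 2 was the best match at 4 weeks the sample of the same number. The numbers were not taken as pairs. With the number as a replicate block, 0 genes passed in knockout granulosa, 0 list members, 0 genes for the difference and 0 marker lists, and the adjusted p of Col18a1 was 0.051. The knockout block fit held only libraries 1 to 5 of each age, without 4 week libraries 6 and 7. The block fit for the difference held the 24 libraries of 7 and 4 weeks. Without a block, the 12 knockout libraries alone gave 1 gene, and the 24 libraries gave 0 for the difference. The part of the block in these counts was not tested. Depth limits calls for genes of a few CPM in the 2 shallowest 7 week knockout libraries.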
